A study of Mus musculus with 2 samples.

Results

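The zinc and copper transporters, the metallothioneins and the genes that work beside them were followed in the injured colon of mice labelled Hif-2αF/F and Hif-2αΔIE. The set was chosen by gene name: every probe set whose platform symbol is a zinc exporter of the Slc30a family, a zinc importer of the Slc39a family, Mt1 to Mt4, Mtf1, Slc31a1, Slc31a2, Atox1, Atp7a, Atp7b or Cp. It comprised 35 genes of 18193 with a symbol of their own on the array, measured by 70 probe sets of 45101. The rule itself uses names and no measured value, but the set was chosen with earlier results of these data known. The samples were mucosal scrapings of colon from C57BL/6 mice aged 6 to 8 weeks that had received 3% dextran sulfate sodium (DSS), a sulfated sugar polymer that damages the gut lining, over 3 days. One group, Hif-2αF/F, carries conditional alleles of Epas1, the gene of HIF-2α, and the other, Hif-2αΔIE, is taken, from what is known of such mice, to lack the gene in the intestinal epithelium (the labels name no Cre driver). Both groups received DSS, so the response to injury itself was not measured. Each genotype is represented by 1 array, and although the study's design names 6 animals for F/F and 5 for ΔIE at 7 weeks, the labels do not state whether their RNA was pooled. The comparison asks which of these transcripts differ between the labelled genotypes, and it can be answered only as a difference between 2 arrays, with no replicate error, test or p-value.

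Zinc crosses membranes through opposing families of carriers: ZnT proteins (Slc30a genes) move it out of the cytosol, to the outside or into organelles and vesicles, and ZIP proteins (Slc39a genes) move it in. Metallothioneins are small cysteine-rich proteins that hold zinc and copper in the cytosol, and their genes are switched on by the zinc-sensing transcription factor MTF-1, encoded by Mtf1, which binds short DNA stretches called metal response elements. Copper enters through CTR1 (Slc31a1), is handed by the chaperone ATOX1 to the pumps ATP7A and ATP7B, and circulates bound to ceruloplasmin (Cp), a ferroxidase that also serves iron release. In the gut, the enterocyte both absorbs these metals for the body and keeps its own pool, and inflamed mucosa is a place where host proteins withhold zinc from bacteria.

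Sequences upstream of the start sites of 6 of these genes show the letters that the metal-sensing and hypoxia-sensing factors are known to recognise. They come from RefSeq (GRCm38.p6), which held windows of 300 bases for 31 of the 35 genes. Mt2, Slc30a10 and Slc30a4 are shown for the 250 bases before the start, with the metal response element letters TGCACNC or TGCGCNC, on either strand, in capitals. Mt1 and Slc30a1 are shown for 30 bases around a match, since other transcripts of these genes start further upstream. Slc39a8 is shown for 30 bases around the hypoxia response element core letters ACGTG, which lie here within CACGTG and so match on both strands.
Mt2 (chr8:94172368-94172617, plus strand): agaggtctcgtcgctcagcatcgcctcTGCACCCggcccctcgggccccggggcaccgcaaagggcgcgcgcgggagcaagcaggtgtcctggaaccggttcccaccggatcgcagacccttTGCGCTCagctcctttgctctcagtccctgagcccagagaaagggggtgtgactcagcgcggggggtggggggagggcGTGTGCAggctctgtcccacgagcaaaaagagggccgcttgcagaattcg
Slc30a10 (chr1:185454598-185454847, plus strand): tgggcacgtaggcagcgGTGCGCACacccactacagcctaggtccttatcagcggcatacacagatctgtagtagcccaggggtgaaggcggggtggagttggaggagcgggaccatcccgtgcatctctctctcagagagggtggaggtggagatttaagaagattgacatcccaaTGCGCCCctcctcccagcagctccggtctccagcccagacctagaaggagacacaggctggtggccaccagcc
Slc30a4 (chr2:122702664-122702913, minus strand): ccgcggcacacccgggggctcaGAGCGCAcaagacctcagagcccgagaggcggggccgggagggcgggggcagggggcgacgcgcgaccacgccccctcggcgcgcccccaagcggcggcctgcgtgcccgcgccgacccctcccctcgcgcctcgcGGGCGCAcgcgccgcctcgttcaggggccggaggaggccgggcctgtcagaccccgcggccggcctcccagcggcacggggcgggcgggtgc
Mt1 (chr8:94179054-94179083, plus strand): gcggtcccgctgTGCACACtggcgctccag
Slc30a1 (chr1:191906726-191906755, plus strand): aacgggggttccGAGTGCAaagcaaagttt
Slc39a8 (chr3:135825574-135825603, plus strand): ggagtgtgacacCACGTGcttcaggggcgg
In Slc30a10 the first block of capitals holds 2 overlapping matches, 1 on each strand. These letters describe the sequence and are not evidence that a factor was bound.

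Values are on a log2 scale, made by the robust multi-array average (RMA), in which a step of 1 is a 2-fold difference, and differences are given as ΔIE minus F/F. A gene took its brightest probe set, and it was kept if either array reached 6.11, the median over all probe sets, which left 11899 genes. Probe sets differ in how strongly they bind, so levels are compared between the arrays and not between genes. The transcript of the targeted gene, Epas1, was not clearly lower on the array labelled ΔIE: the brighter of its probe sets gave 11.90 in F/F against 11.77 in ΔIE and the dimmer one 6.98 against 7.15, differences of -0.13 and 0.16. The position of these probe sets against the deleted exons was not examined, and probe sets outside those exons would check nothing. The 4 control probe sets for Cre recombinase read 2.92 to 4.22 in F/F against 7.86 to 10.01 in ΔIE. They are controls of the array, and whether they read a transgene or added control RNA was not examined. The deletion is therefore taken from the label, and every direction below compares the arrays as labelled. All 14 colon epithelium markers were kept, with a mean level of 12.58 in F/F against 12.75 in ΔIE, and Epcam, which marks epithelial cells, differed by 0.09. Of the pancreas markers 4 of 5 on the array were below the filter on both arrays, and of the liver markers 4 of 6. Markers of other cell types differed between the arrays. All 12 neutrophil markers were lower in ΔIE (mean level 10.79 against 9.30), as were all 11 macrophage and monocyte markers on the array (9.50 against 8.45). All 9 fibroblast and matrix markers were lower as well (11.14 against 10.25). The 7 posterior Hox genes kept, which mark position and not a cell type, were also all lower (8.28 against 6.55). Hoxa10, Hoxa13 and Hoxd11 among them, and Itgam among the macrophage and monocyte markers, passed the filter through F/F alone. Their direction was fixed by the filter and adds no support. Of 13 enteroendocrine markers 10 were higher (8.02 against 8.68), with Cck and Pcsk1 among them passing the filter through ΔIE alone. In whole tissue, fewer cells of a type and less RNA per cell cannot be told apart. A difference in the stretch of colon scraped was not tested, and it would bear on every difference below.

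Of the 35 zinc and copper genes 30 were kept, with 53 of the 70 probe sets above the filter. Among the 30, 16 were higher and 14 lower on the ΔIE array, a share above 0 of 53.3% beside 52.7% of all genes kept (46.5% of which were below 0), and the median difference was 0.07 beside 0.02. Atp7b passed the filter through F/F alone, and with a filter on both arrays 16 were higher and 13 lower. Cp and Slc39a6 were at least 2-fold lower, 2 of 30 genes where 5.30% of all genes kept were, and Mt3 and Slc39a8 were at least 2-fold higher, 2 of 30 genes where 1.15% were. At 1.5-fold the same 2 genes were lower (10.6% of all genes) and 5 were higher (4.37% of all genes), the additional ones being Slc30a10, Mt1 and Slc39a5. The other 23 genes, 76.7% of the set beside 85.0% of all genes kept, lay within 1.5-fold. Slc30a2, Slc30a8, Slc39a2, Slc39a12 and Mt4 were below the filter on both arrays by their brightest probe set, at 2.94 to 5.39. These 5 include the carrier of insulin granules (Slc30a8) and the metallothionein of stratified epithelia (Mt4).

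**Figure D1:**
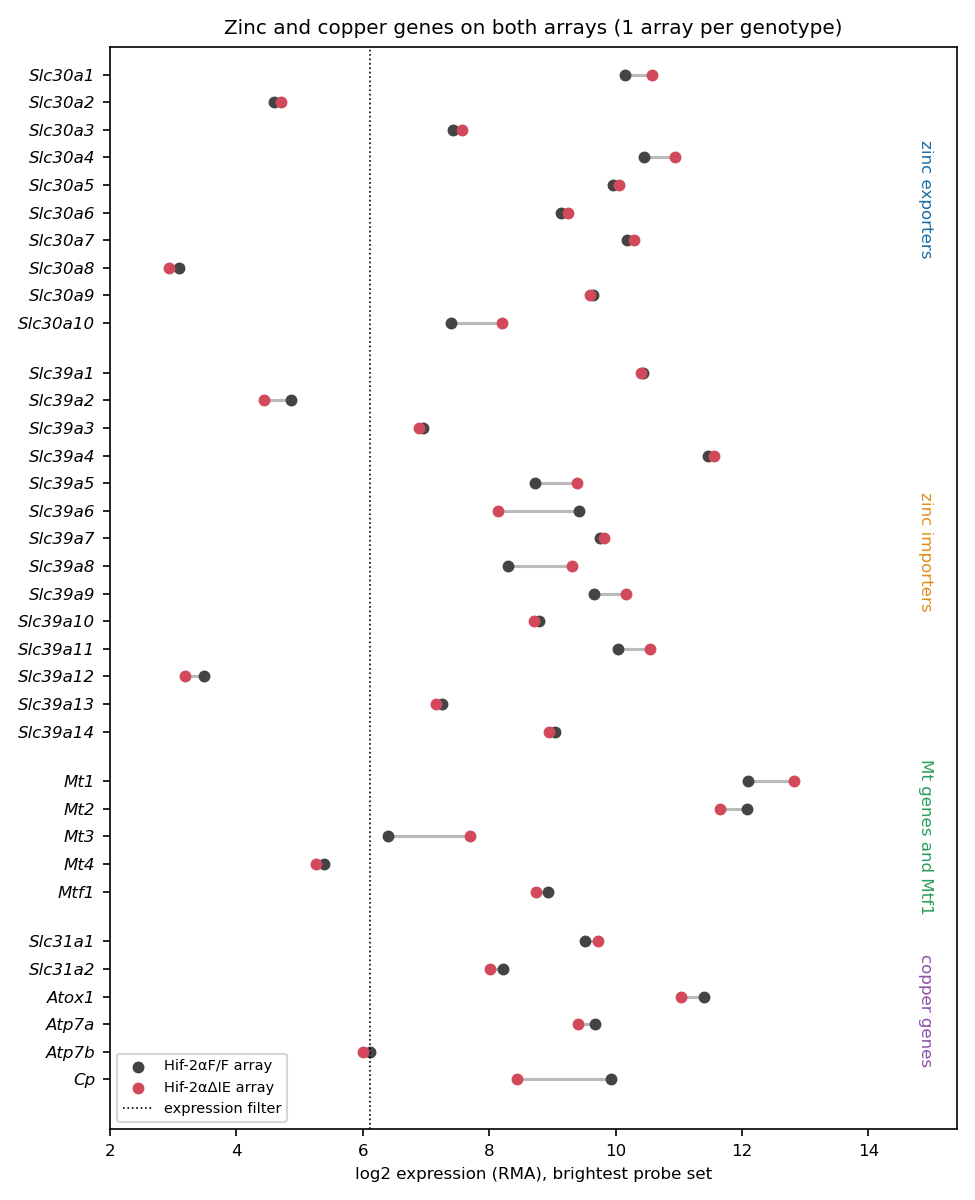
Log2 expression (RMA) of the brightest probe set of each of the 35 genes, F/F array in grey and ΔIE array in red, grouped by role, with the expression filter of 6.11 as a dotted line. The widest gaps are those of Cp (9.93 in F/F, 8.44 in ΔIE), Mt3 (6.40 and 7.70), Slc39a6 (9.43 and 8.14) and Slc39a8 (8.30 and 9.31).

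Of the zinc exporters, 7 of 8 genes kept were above 0 on the ΔIE array, beside 52.7% of all genes kept. The median was 0.13, and none was at 2-fold in either direction. Several of the 7 differed by little, such as Slc30a5 by 0.08. Over all genes, the median gap between the differences of a gene's 2 brightest probe sets was 0.10. Slc30a10, a carrier best known for exporting manganese from cells, stood at 7.40 in F/F against 8.21 in ΔIE, 1.75-fold higher. Its other probe set read 6.86 and 7.65, so both gave nearly the same size, 0.81 and 0.79. It ranked 249th from the highest of the 11899 genes. Slc30a4, a vesicular exporter first known for loading zinc into milk, read 10.44 in F/F and 10.94 in ΔIE. Slc30a1, the main exporter of the plasma membrane and a known MTF-1 target, read 10.15 in F/F and 10.58 in ΔIE by its brighter probe set. The dimmer one read 7.40 and 7.87, a difference of 0.46 beside 0.43. Slc30a10, Slc30a4 and Slc30a1 thus had the largest differences of the family, and for Slc30a10 and Slc30a1 a second probe set, above the filter on both arrays, gave the same direction. On the same arrays 8 of 9 goblet cell markers were higher (median 0.28), as were 9 of 14 colon epithelium markers (median 0.11), and their part in the exporter values was not tested.

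The exporters of the early secretory pathway hardly differed. Slc30a5 and Slc30a6, which form a pair, and Slc30a7 load zinc into alkaline phosphatases and other enzymes on their way to the surface. Slc30a5 read 9.96 in F/F against 10.05 in ΔIE, and Slc30a6 read 9.14 and 9.25. Slc30a7 read 10.18 and 10.28 by its brighter probe set and 9.34 and 9.28 by its dimmer one, so its sign depended on the probe set. Slc30a3, the synaptic vesicle exporter, differed by 0.14, and Slc30a9, a carrier found in mitochondria, by -0.05.

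The zinc importers went both ways, with 6 of 12 genes kept above 0 and a median of 0.01. Slc39a8, an importer of zinc, manganese and iron, was the highest of them. It read 8.30 in F/F against 9.31 in ΔIE by its brighter probe set, 2.02-fold higher, and 5.99 and 7.22 by the other. The differences were 1.01 and 1.22, but the second probe set was below the filter in F/F and passed it through ΔIE alone, so it is given as a value and not as support. The gene ranked 133rd from the highest. After a lowess correction of the difference on the level, the brighter probe set differed by 0.98, just short of 2-fold.

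Slc39a6, a plasma membrane importer known as an estrogen-responsive gene of breast cancer, was the lowest importer. By its brightest probe set it went from 9.43 in F/F to 8.14 in ΔIE, 2.43-fold lower, which ranked it 365th from the lowest of all genes kept. The second probe set gave 7.27 in F/F against 6.51 in ΔIE, a difference of -0.75, and the remaining 2 lay below the filter and differed by -0.60 and 0.06. Averaged over the 4 probe sets the difference was -0.64. The direction was therefore shared by both probe sets above the filter, which are annotated to the same sequence record, whereas the size depended on which was read. The B and plasma cell markers (8 of 8 lower, median -1.70) and the squamous epithelium markers (7 of 8 kept lower, median -1.28) were lower on the same arrays, and their part in the Slc39a6 value was not tested. Among these markers Cr2 passed the filter through F/F alone and Lor through ΔIE alone.

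Slc39a4 and Slc39a5, importers at the surface of the enterocyte, differed from each other in size. Slc39a4, the apical importer that takes up dietary zinc, read 11.45 in F/F and 11.55 in ΔIE. Slc39a5, which sits on the basolateral side, stood at 8.73 in F/F against 9.39 in ΔIE, 1.59-fold higher by its single probe set. Outside this pair, Slc39a9 read 9.65 and 10.16, and Slc39a11 read 10.03 and 10.54, both differing by 0.51. The dimmer probe sets of Slc39a9, below the filter on both arrays, differed by 0.18 and 0.78, also above 0.

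**Figure D2:**
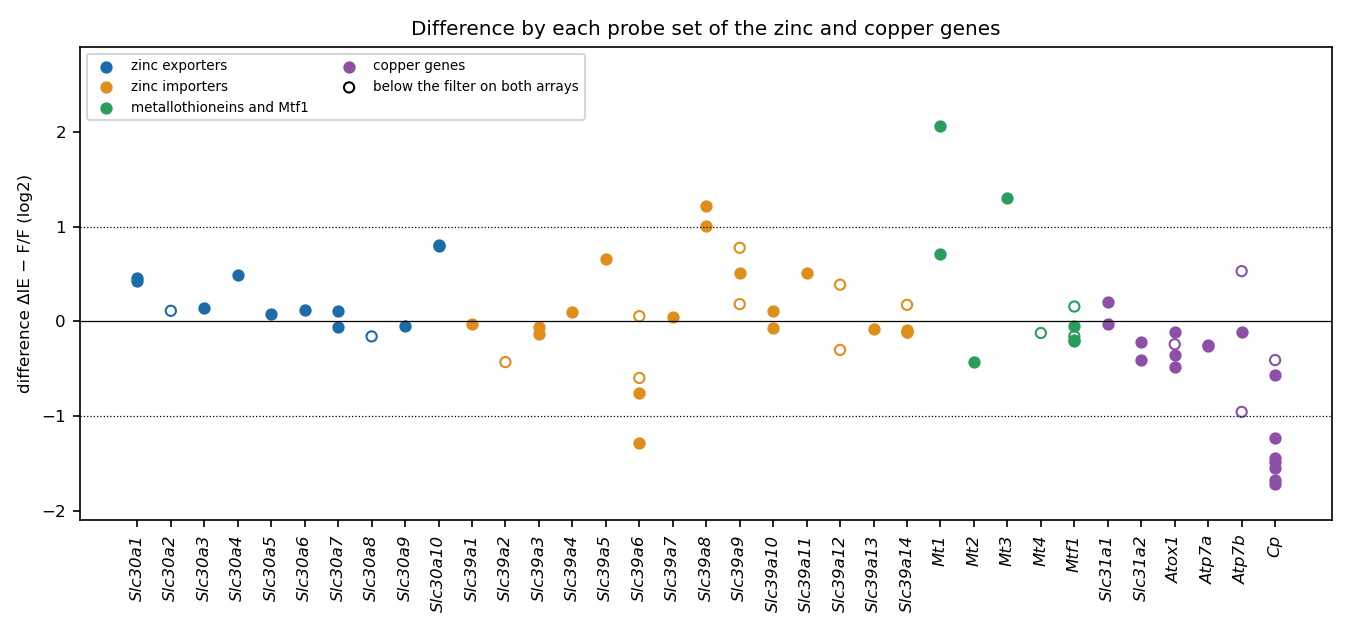
Difference between the arrays (ΔIE minus F/F, log2) for each of the 70 probe sets, coloured by role, with open circles for probe sets below the filter on both arrays and dotted lines at 2-fold. Of the 8 Cp probe sets 6 lie below the lower line, both Slc39a8 probe sets lie above the upper line, and the probe sets of Mt1 lie apart at 0.72 and 2.06.

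Other importers lay close to 0. Slc39a14, which carries zinc, iron and manganese and is known as an acute phase gene of the liver, read 9.05 in F/F against 8.95 in ΔIE, and its 3 probe sets above the filter differed by -0.12 to -0.09. Slc39a7, which releases zinc from the endoplasmic reticulum, differed by 0.05, and Slc39a1, Slc39a3, Slc39a10 and Slc39a13 by -0.03, -0.06, -0.07 and -0.08. For Slc39a10, Slc39a1 and Slc39a7 the sign changed with the averaging of probe sets (0.02), with median centring (0.01) and with the lowess correction (-0.01), respectively.

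The metallothionein genes did not move together. Mt1 went from 12.10 in F/F to 12.82 in ΔIE, a 1.64-fold higher value that ranked 343rd from the highest. Its second probe set gave 5.44 in F/F against 7.50 in ΔIE, a difference of 2.06, 1.35 from that of the first. This dimmer probe set was below the filter in F/F and passed it through ΔIE alone, so it adds no support to the direction or the size. For all 5110 genes with at least 2 probe sets above the filter, 95% of such gaps were within 0.41. Mt2, the neighbouring gene with a protein of the same class, went from 12.08 in F/F to 11.65 in ΔIE, 1.35-fold lower from its single probe set. Between these neighbours the differences lay 1.15 apart on the log2 scale. The 2 genes are usually described as induced together by zinc, glucocorticoid and inflammation, and the probe set used for Mt1 is of a kind that can match several transcripts (its ID ends in _s_at). Without such probe sets Mt1 was represented by the dimmer one, at 2.06, a value with the same limit.

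Mt3, the metallothionein first described as a growth inhibitory factor of neurons, had the largest upward difference of the set by brightest probe sets. It went from 6.40 in F/F to 7.70 in ΔIE, 2.46-fold higher, which placed it 61st from the highest of 11899 genes. It has 1 probe set, and its F/F value lies only just above the filter. The enteroendocrine marker list, with a median of 1.10, and the skeletal muscle list, with 5 of 5 genes kept at least 2-fold higher, were higher on the same arrays, and their part in the Mt3 value was not tested. In the RefSeq order of protein-coding genes, Mt4, Mt3, Mt2 and Mt1 follow each other directly on chromosome 8. Along this cluster the differences were -0.12 (below the filter), 1.30, -0.43 and 0.72. Mtf1 itself read 8.93 in F/F against 8.73 in ΔIE, and its 3 probe sets above the filter differed by -0.21 to -0.05.

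**Figure D3:**
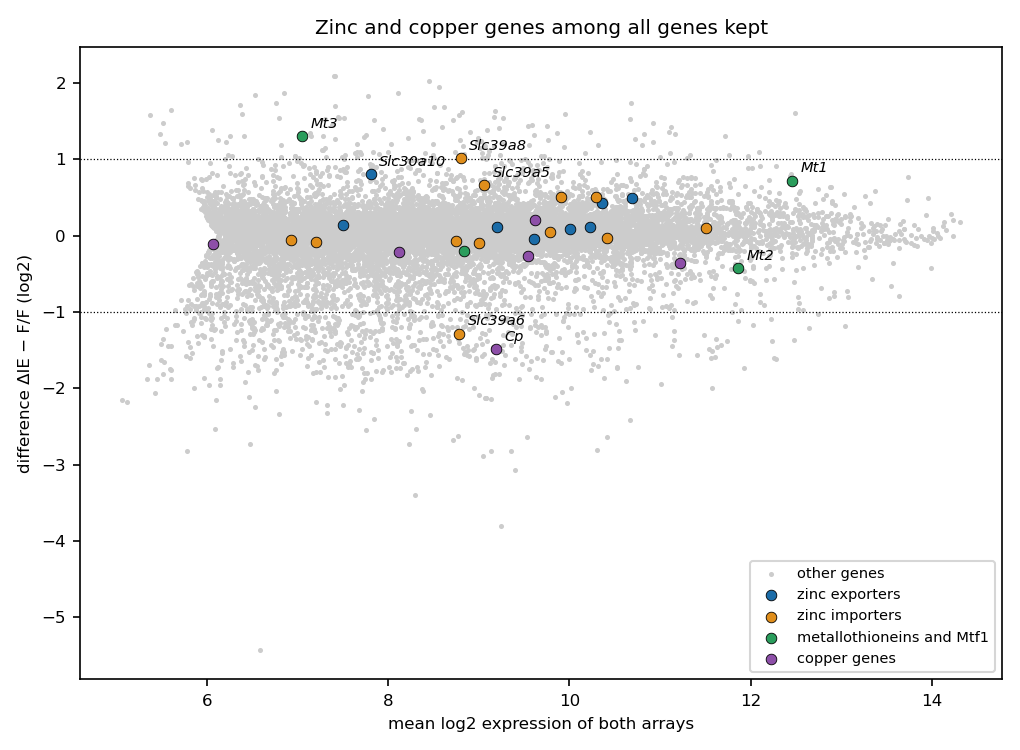
Difference between the arrays (log2) against the mean log2 expression of both arrays for the 11899 genes kept, with the 30 zinc and copper genes coloured by role and dotted lines at 2-fold. Mt3 and Slc39a8 lie above the upper line and Cp and Slc39a6 below the lower one, while Mt1 (0.72) and Mt2 (-0.43) lie on opposite sides of 0.

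Of the copper genes, 5 of 6 were below 0 on the ΔIE array, beside 46.5% of all genes kept, with a median of -0.24. Atp7b is among the 5, but it passed the filter through F/F alone, so its direction was fixed by the filter. Cp made up most of the size. Its brightest probe set went from 9.93 in F/F to 8.44 in ΔIE, 2.80-fold lower, and ranked 238th from the lowest of all genes kept. Of its 8 probe sets 5 were above the filter on both arrays, and all 5 were at least 2-fold lower in ΔIE, with differences from -1.72 to -1.44. The other 3 differed by -1.23, -0.56 and -0.41. Averaged over all 8 the difference was -1.26, so the call did not rest on 1 probe set. Of the 5, however, the probe set at -1.44 is annotated to its own sequence record and the rest share a single one, so they are not separate readings. The macrophage and monocyte markers were lower on the same arrays, with 11 of 11 below 0 and a median of -1.10, as were the neutrophil markers, with 12 of 12 below 0 and a median of -1.56. Of these markers Itgam passed the filter through F/F alone. Ceruloplasmin is known as a plasma protein of the liver and is also made by macrophages. Of the 6 liver markers, Alb, Serpina1c, Fgb and Ahsg were below the filter on both arrays, at 3.83 to 5.25. Of the other two, Ttr, the plasma carrier of thyroxine and retinol, read 10.00 in F/F against 8.34 in ΔIE, 3.16-fold lower like Cp, and Apoh read 5.46 against 6.11. The part of leukocytes or of liver-type transcripts in the Cp value was not tested.

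The genes of copper entry and transfer differed less. Slc31a1 (CTR1), the importer of the plasma membrane, read 9.52 in F/F and 9.72 in ΔIE by its brighter probe set, and its other one differed by -0.03. Slc31a2 (CTR2), a relative of CTR1 found in endosomes and lysosomes, read 8.22 and 8.01, and its second probe set differed by -0.41. Atox1, the cytosolic chaperone, read 11.40 in F/F against 11.04 in ΔIE, and its 3 probe sets above the filter differed by -0.48 to -0.11. Atp7a, the pump that passes copper from the enterocyte to the blood, read 9.68 and 9.41, and its probe sets differed by -0.26 and -0.25. Atp7b, the liver copper pump mutated in Wilson disease, stood at the filter with 6.12 and 6.01, and its dimmer probe sets went both ways (-0.96 and 0.53). Chaperone and exporter were thus lower by every probe set above the filter, each by less than 1.5-fold, while the importer had no common sign.

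Other genes of copper handling were read from a separate list. Of 21 genes on the array 19 were kept, 10 higher and 9 lower, with a median of 0.07. At least 2-fold lower were 3 of the 19, where 5.30% of all genes kept were, and 0 were 2-fold higher, where 1.15% were. Steap4, a metalloreductase that reduces iron and copper before uptake, went from 11.07 in F/F to 8.88 in ΔIE, 4.56-fold lower, and averaged over its probe sets it differed by -1.91. Lox, the copper enzyme that crosslinks collagen, read 9.60 and 8.09, with -0.93 as the average over its 3 probe sets in place of -1.52. Sod3, the extracellular superoxide dismutase, read 8.65 and 7.52, with -0.90 on average in place of -1.13. Divided after their values were seen, the lysyl oxidases kept (Lox, Loxl1 and Loxl3) and Sod3 were all 4 lower, beside 46.5% of all genes kept, with a median of -1.05. Of 7 intracellular chaperones and assembly factors 6 were higher, beside 52.7% of all genes kept, with a median of 0.35. Among these, Sco1, which delivers copper to cytochrome c oxidase, read 8.29 in F/F and 8.98 in ΔIE, Ccs, which loads superoxide dismutase 1, read 8.98 and 9.47, and Cox17 differed by -0.06. The fibroblast and matrix markers, 9 of 9 lower with a median of -0.94, were lower on the same arrays as the lysyl oxidases and Sod3, and their part in those values was not tested.

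**Figure D4:**
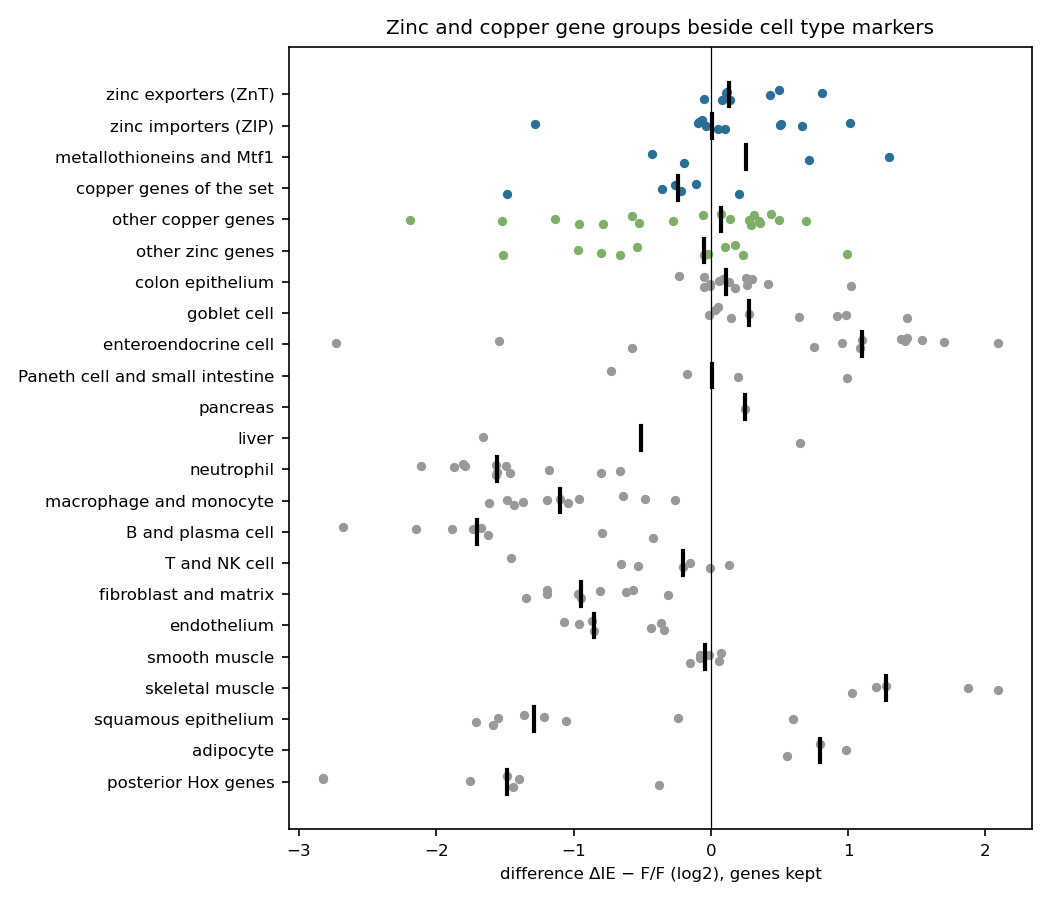
Difference between the arrays (ΔIE minus F/F, log2) for each gene kept, as points, with the median of each list as a black bar. Colours mark the zinc and copper groups (blue), other copper and zinc genes (green), and cell type markers with the posterior Hox genes (grey). Zinc exporters lie mainly to the right of 0 (median 0.13) and the copper genes of the set mainly to the left (median -0.24), while neutrophil (-1.56) and macrophage (-1.10) markers lie farther left. Among the copper genes of the set, Atp7b passed the filter through F/F alone.

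Other genes tied to zinc formed a mixed list of 14, of which 11 were kept, 7 of them lower, with a median of -0.05. That list held Lcn2 (12.33 in F/F, 10.82 in ΔIE) and Hif1a (12.38 in F/F, 11.41 in ΔIE), which do not belong to zinc handling. Lcn2 was the only gene of the list at 2-fold, where 5.30% of all genes kept were at least 2-fold lower. Without Lcn2 and Hif1a, 5 of 9 genes were lower with a median of -0.02. S100a8 and S100a9, the subunits of calprotectin, which withholds zinc and manganese from microbes, read 13.88 and 14.03 in F/F and 13.22 and 13.24 in ΔIE. Both are also neutrophil markers, and that list was lower throughout. Alpi, the intestinal alkaline phosphatase and a zinc enzyme, went from 8.97 in F/F to 9.96 in ΔIE, 1.99-fold higher from a single probe set. Alpl, the tissue-nonspecific form, read 6.42 and 5.88. The zinc-containing carbonic anhydrase genes Car1, Car2 and Car4, abundant in colonocytes, differed by 0.17, 0.24 and -0.05.

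The promoter windows were then searched for metal response element letters (TGCACNC or TGCGCNC) and for the hypoxia response element core (ACGTG or GCGTG), on both strands. Of the 37 windows of 31 genes in the set, 51.4% held a metal response element match, beside 25.7% of all 32851 windows of the same length. The set's windows were also richer in G and C, at 59.5% beside 53.8%. Hypoxia core letters were found in 56.8% of the set's windows and in 43.8% of all. Mt2 held 4 metal response element matches, Mt1, Slc30a10 and Slc30a4 held 3 each, and Slc30a1 held 2, where 1.97% of all windows held 3 or more. Of the matches, 1 each in Mt2, Slc30a4, Slc39a13 and Atp7a overlapped a hypoxia core match. Mt3 held 1 metal response element match, after its start site. The differences between the arrays were 0.72 for Mt1, -0.43 for Mt2 and 1.30 for Mt3. Whether the letters bear on these differences was not tested. The windows of Cp held neither motif, which says only that these letters are not in those windows.

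**Figure D5:**
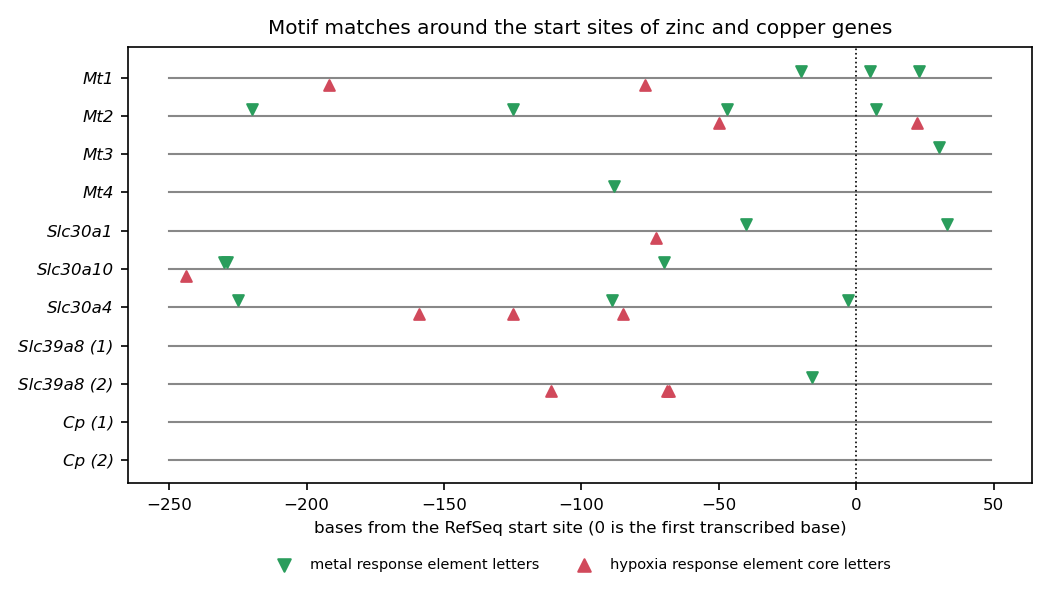
Positions of metal response element letters (green, above the line) and hypoxia response element core letters (red, below the line) from 250 bases before to 49 bases after the RefSeq start site, for 9 of the genes, with (1) and (2) marking windows of different starts. Mt2 has 4 green marks and Mt1, Slc30a10 and Slc30a4 have 3 each, 2 of those of Slc30a10 overlapping, and both Cp windows are empty.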

How the data were processed

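Total RNA from colon mucosal scrapings was extracted with Trizol and labelled from 250 ng, per the labels' protocols, and hybridised to 1 array per genotype. The deposited table holds log2 values, which the authors made with affy and RMA (background correction, quantile normalization and probe set summary), per the submitters' processing notes; no versions or filters are named, nor which arrays were normalized together. Quantile normalization makes the arrays' distributions nearly equal (medians 6.12 and 6.11), so a shift common to the bulk of genes is hidden, and RMA compresses differences of dim probe sets and gives no detection call.

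Probe sets were named from the platform annotation: 34958 had 1 symbol, 932 several and 9211 none, and only the first were used, without control probe sets. All 35 symbols of the set matched a RefSeq gene (GRCm38.p6) by Entrez ID. The gene value was that of the probe set with the highest mean, the filter was the median of all probe sets' means, and genes were counted at 2-fold. With 1 array per group no test was made, and the number of arrays limits the precision. Described one by one were the genes kept, by role, and from the other lists up to 4 genes of largest difference, markers that define a cell type and genes named for their role after their values were seen. The gene set and lists were chosen with earlier results of these data known. The gene summary was tested on simulated data in which all probe sets of a changed gene moved alike with little noise. That checks the computation only, and it cannot show how disagreeing probe sets affect a gene. Alternatives were the mean over probe sets, leaving out _s_at and _x_at probe sets, a filter on both arrays, at the 75th percentile or left out, centring on the median, lowess (span 0.3), and thresholds of 1.5-fold and 3-fold; the divisions of the other copper and zinc lists were chosen after seeing the data. The software was Python 3.11.15 with pandas 2.3.3, numpy 2.4.6, statsmodels 0.14.6 and matplotlib 3.10.9.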

Additional observations from a re-analysis of the deposited data

How the results depend on the processing

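Of 202 recomputed differences of single genes, 199 moved by less than 0.41, the 95th percentile of the gap between the 2 brightest probe sets of a gene, and 3 moved further: Mt1 to 1.39 with probe sets averaged and to 2.06 without _s_at and _x_at probe sets, and Slc39a6 to -0.64 with probe sets averaged. None of the 4 genes at 2-fold changed sign under the 7 alternatives for gene values that kept it. Both statements include settings that could hardly fail. The alternative filters change only which genes are kept, so they could not move a difference. Median centring shifts all genes equally, and leaving out _s_at and _x_at probe sets changes only genes represented by one. Mainly averaging probe sets and the lowess correction could move single genes. The count of genes at least 2-fold lower, 2, was 1 with probe sets averaged and 0 at a 3-fold threshold. The count at least 2-fold higher, 2, was 1 under the filter at the 75th percentile, which left out Mt3, 1 with the lowess correction, which put Slc39a8 at 0.98, 3 with probe sets averaged and 3 without _s_at and _x_at probe sets, both adding Mt1, 5 at a 1.5-fold threshold and 0 at a 3-fold threshold. The median of the set stayed between -0.03 without a filter, where 18 of 35 genes were lower, and 0.11 with median centring. No paired analysis was possible because each genotype has 1 array. Genes near the filter, such as Mt3 and Atp7b, rest on dim signal, and 17 of the 35 genes have 1 probe set.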

Other observations

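Of the 18 genes of the set with metal response element letters in a promoter window, 16 were kept, with 10 higher and 6 lower on the ΔIE array and a median difference of 0.29. Of all genes kept 52.7% were higher, with a median of 0.02. Atp7b, among the 6 lower, passed the filter through F/F alone. Of the 13 without such letters 11 were kept, with 5 higher and 6 lower and a median of -0.03. Slc39a4 (0.10), Slc39a6 (-1.28) and Slc39a14 (-0.09) were kept but had no promoter window, so they are in neither group. This division was made after the values were seen, and no test was run on it.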
